A study of Mus musculus with 2 samples.

Results

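The regions described here are sites of DNase I cutting that ranked high in G1E cells and not in estradiol-treated G1E-ER4 cells. They were chosen by measured values: the top 20000 peaks of each of 4 peak lists were taken by the authors' signal, overlapping peaks were merged, and a region was kept where both G1E lists and neither G1E-ER4 list had a top-ranked peak. On the chromosomes used, 945 of 23545 merged regions met the rule, which is 4.01% of them. Chromosomes 3, 7, 9 and 12 were left out by the rule, and another 287 such regions lay there, 130 of them on chromosome 12. All other chromosomes gave the members, of which 105 lay on chromosome 11, 7 on X and 1 on Y.

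G1E is a mouse erythroid progenitor line of strain 129 from a male, which lacks Gata1 and was sampled with no treatment. G1E-ER4 is a subline of G1E, also labelled male and strain 129, with Gata1 restored in a form that estradiol activates. It was sampled after 24 h in 10 nM beta-estradiol, a treatment under which these cells differentiate. The labels give both lines the age of an embryonic stem cell. Each state was 1 sample with 2 peak lists, called list 1 and list 2, and nothing in the labels says whether the lists came from separate cultures. Estradiol, the restored gene and the line itself differ together between the states and cannot be told apart. The promoters of 9 of 9 erythroid progenitor markers, among them Kit, Gata2 and Tal1, had a peak in all 4 lists. Of 10 markers of other cell types, 3 (Pax5, Csf1r and Gfap) had a promoter peak in all 4 lists and 4 in none. Pou5f1 had one in 3 lists, Rag1 in the 2 G1E-ER4 lists and Nanog in 1 list. Among genes with any top-ranked region, 77.3% had a promoter peak in all 4 lists, so such peaks mark cell type only weakly.

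DNase I cuts DNA where nucleosomes are displaced, so peaks of cutting mark promoters, enhancers and insulators that are open. GATA factors bind short GATA words at most erythroid enhancers. In progenitors that lack Gata1 the related factor Gata2 is present, and it gives way to Gata1 as the cells mature. PU.1 is an ETS factor of progenitor, myeloid and lymphoid cells that binds a purine-rich site around GAGGAAGT, and Gata1 and PU.1 are known to restrain each other. RUNX factors bind TGTGGTT and act in stem and progenitor cells, and CTCF is the main insulator protein. In a bulk sample, a site that is open in fewer cells and a site that is less open in each cell cannot be told apart.

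Sequences of 5 members give examples of the words counted in the motif results below. They are 200 bp around the summit of the best-ranked peak, read from the NCBIM37 (mm9) genome, 5′ to 3′, and none of the 5 regions had a peak of any rank in either G1E-ER4 list. Capitals mark a GATA, ETS or RUNX match on either strand. The Arhgef10l and Myb sites hold the PU.1 type ETS word GAGGAAGT, the Cacng1 site holds a RUNX word, and the Kif20b and Nmnat2 sites hold RUNX and GATA words together. All but the Myb site were picked as the strongest members with no G1E-ER4 peak that hold a PU.1 type or RUNX word. The Myb site was picked for its gene, known to fall as G1E-ER4 cells mature. The sites are thus not typical of members, of which 11.9% held the PU.1 type word and 13.2% a RUNX word.
Arhgef10l, chr4:140142506-140142705, + strand: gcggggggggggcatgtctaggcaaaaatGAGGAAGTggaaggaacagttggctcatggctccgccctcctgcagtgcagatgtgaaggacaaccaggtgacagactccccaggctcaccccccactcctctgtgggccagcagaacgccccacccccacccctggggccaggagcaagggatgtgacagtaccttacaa
Myb, chr10:20871246-20871445, + strand: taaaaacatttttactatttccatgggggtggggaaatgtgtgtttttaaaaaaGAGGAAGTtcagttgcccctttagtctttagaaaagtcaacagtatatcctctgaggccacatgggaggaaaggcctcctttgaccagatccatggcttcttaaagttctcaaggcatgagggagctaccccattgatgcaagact
Cacng1, chr11:107581722-107581921, + strand: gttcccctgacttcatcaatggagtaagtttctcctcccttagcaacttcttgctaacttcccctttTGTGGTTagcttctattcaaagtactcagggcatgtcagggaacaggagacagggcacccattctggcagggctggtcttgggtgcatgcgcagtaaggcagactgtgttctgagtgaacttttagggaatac
Kif20b, chr19:34979981-34980180, + strand: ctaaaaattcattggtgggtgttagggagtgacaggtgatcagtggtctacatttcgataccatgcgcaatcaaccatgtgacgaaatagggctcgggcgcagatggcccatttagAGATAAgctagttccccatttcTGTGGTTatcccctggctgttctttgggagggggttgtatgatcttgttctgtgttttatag
Nmnat2, chr1:154868466-154868665, + strand: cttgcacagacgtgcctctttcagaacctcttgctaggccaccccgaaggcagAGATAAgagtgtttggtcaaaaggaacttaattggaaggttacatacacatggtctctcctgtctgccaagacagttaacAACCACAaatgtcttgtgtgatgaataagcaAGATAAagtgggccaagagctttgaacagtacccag

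The state pairing held more regions than any crossed pairing of the lists. A crossed pair takes 1 list of each state, so the regions held by exactly those 2 lists give the noise level between lists. The 4 crossed pairs held 432, 503, 463 and 611 regions, against 945 for the G1E lists and 690 for the G1E-ER4 lists. Only 3 divisions of the 4 lists into pairs exist, so the smallest p of an exact permutation test is 0.333 and no test here can pass a threshold of 0.05. The numbers of regions follow from the ranks that chose the members and were not tested. Of all regions, 8805 were held by all 4 lists. Among the top 10000 peaks of each list, the G1E lists held 234 regions alone, which lay inside the crossed range of 189 to 374.

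**Figure D1:**
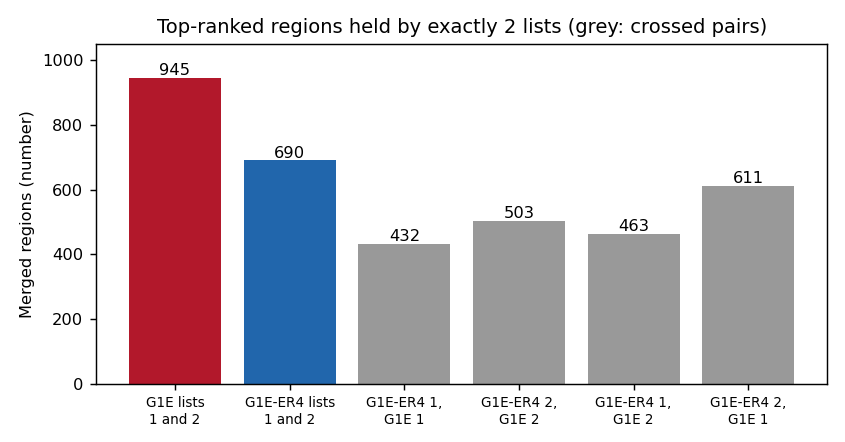
Bars give the number of merged regions (y axis) whose top-ranked peaks came from exactly 2 of the 4 lists (x axis). The G1E pair held 945 and the G1E-ER4 pair 690, and the 4 crossed pairs in grey held 432 to 611.

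Most members were not without a peak in G1E-ER4 but stood lower there. A peak of lower rank was present in at least 1 G1E-ER4 list in 866 members (91.6%, Wilson 95% interval 89.7 to 93.2, which covers counting of regions only) and in both lists in 516 (54.6%). It reached the G1E summit itself in 843. The remaining 79 members (8.36%) had no G1E-ER4 peak among 100000 in each list. List 2 of G1E-ER4 had a peak in 754 members and list 1 in 628. In crossed pairs the share with no peak in either of the other lists was 0.864 to 29.3%, so the 8.36% lay inside the noise level, and the number itself, 79, lay inside the crossed range of 4 to 179.

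Rank within a list is given here as a percentile, where 100 is the strongest of 100000 peaks and 80.001 is the rank limit. The members' median was 84.2 in G1E list 1 and 87.5 in G1E list 2. Where a G1E-ER4 peak existed its median was 64.4 in list 1 and 69.2 in list 2. The best G1E-ER4 rank was between 20001 and 25000 in 302 members, up to 40000 in 341, up to 60000 in 132 and up to 100000 in 91. These values chose the members and are descriptions, with no test. Just inside the limit, a region nearest Cdh9 (a cadherin gene) had rank 19999 in G1E list 1, and a region nearest Cno had rank 20001 in G1E-ER4 list 2. Just outside, regions nearest Fbxw11 and Cdk17 were left out by G1E-ER4 ranks of 19956 and 19988.

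**Figure D2:**
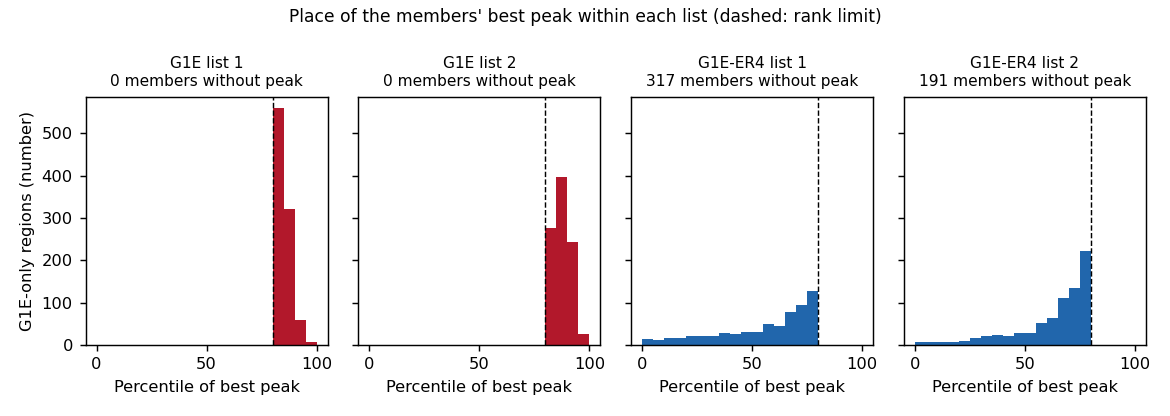
Histograms show the percentile of each member's best peak (x axis) in each of the 4 lists and the number of members (y axis), with the rank limit dashed. By the rule all members lie above the limit in G1E, while in G1E-ER4 they pile up just under it and 317 (list 1) and 191 (list 2) have no peak.

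Members lay mainly in introns and between genes. The summit was in an intron in 443 members (46.9%), between genes in 402 (42.5%), at a promoter (within 1000 bp of a protein-coding start, GENCODE vM1) in 68 (7.2%), in an untranslated exon in 2.22% and in a coding exon in 1.16%. The promoter share was 9.71% for G1E-ER4-only regions and 4.54 to 16.2% in crossed pairs, so it did not stand outside the noise level. Without G1E-ER4 list 2 it was 33.4%, and among the top 10000 peaks it was 21.8%. Regions of all 4 lists were at promoters in 63.8%. The intron share was above the crossed range of 39.1 to 41.9%, and G1E-ER4-only regions had 46.5%. Members' median distance to a start was 19036 bp, and 204 (21.6%) were over 50 kb from any. The 79 members with no G1E-ER4 peak held 35 introns, 38 sites between genes and 4 promoters.

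**Figure D3:**
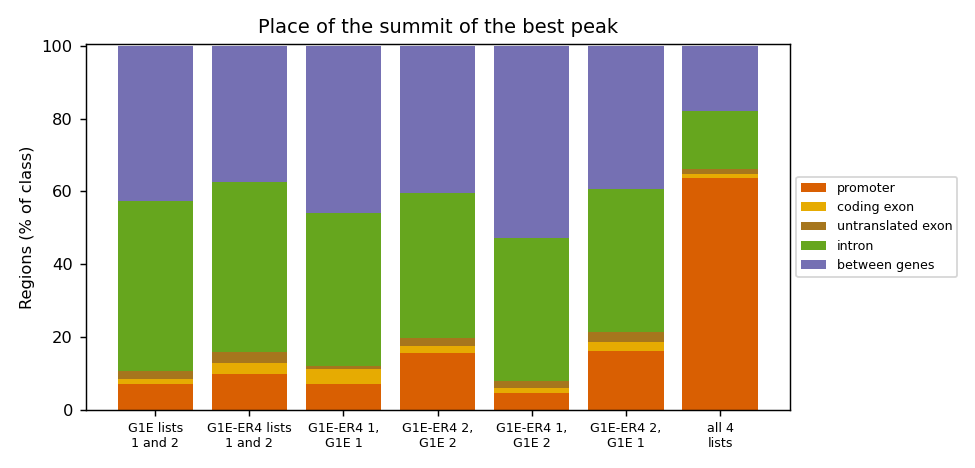
Stacked bars give the share of regions (y axis, percent) by place of the summit for the 6 pairs of lists and for all 4 lists (x axis). The G1E pair has 7.2% promoters, within the 4.54 to 16.2% of the crossed pairs, while regions of all 4 lists have 63.8%.

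Members clustered along the chromosomes. Another member lay within 100 kb of 325 of them (34.4%, 31.4 to 37.5), against 9.03 to 17.1% of regions in crossed pairs and 42.8% in G1E-ER4-only regions. Classes with more regions have more neighbours by number alone, and the part of number in these shares was not tested.

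Sequence was not used by the rule, and 20 patterns, 1 of them a control of shuffled GATA letters, were searched on both strands in the 200 bp around each summit. Telomere repeats were counted apart from these and are given below. The members' share was above all 4 crossed pairs for 10 patterns, below all 4 for 1 and inside the range for 9, the control among them. A GATA word (AGATAA or AGATAG or TGATAA or TGATAG) was present in 482 members (51.0%, 47.8 to 54.2). Crossed pairs had 25.4 to 42.5%, all merged regions 29.7% and regions of all 4 lists 18.4%. G1E-ER4-only regions had 50.4%, a difference of 0.571 percentage points, where crossed pairs differed by 12.7 and 7.89 points (exact permutation over the 3 divisions, p = 1.0). Regions of G1E list 2 alone had GATA words in 49.7% and regions of G1E list 1 alone in 31.3%, and without G1E list 2 the share was 38.8%. The control was in 23.5% of members and 20.3 to 30.3% in crossed pairs. Promoters made up 7.2% of members, 32.5% of all merged regions and 63.8% of regions of all 4 lists. Outside promoters a GATA word was in 52.8% of members and 28.5 to 46.4% of crossed pairs. There it was in 39.1% of all merged regions, 35.4% of regions of all 4 lists and 53.3% of G1E-ER4-only regions. GATA words lay within 50 bp of the summit in 71.8% of the members that held one, in 68.7% of such G1E-ER4-only regions and in 64.3% of all such merged regions, and the control words in 52.7% of members.

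The PU.1 type ETS word reached 1.71 times its highest crossed share, against 1.46 times for RUNX words, 1.27 for all ETS words and 1.2 for GATA words. The other patterns above all crossed pairs were CATCTG (1.24 times), MYB words (1.22), the CCAAT box (1.21), STAT (1.11), AP-1 (1.1) and CAGCTG (1.07). The excess was thus not particular to GATA, ETS and RUNX words. GAGGAAGT was found in 112 members (11.9%, 9.94 to 14.1), in 1.45% of G1E-ER4-only regions (10 regions), in 1.16 to 6.96% of crossed pairs, in 2.11% of regions of all 4 lists and in 3.3% of all merged regions. The difference of 10.4 percentage points between the states exceeded the 5.8 and 0.85 points between crossed pairs (exact permutation, two-sided p = 0.333, the smallest that 3 divisions give). In members it lay within 50 bp of the summit in 81 of 112 (72.3%, 63.4 to 79.8), in all merged regions in 529 of 778 (68.0%) and in G1E-ER4-only regions in 2 of 10. The share was above the crossed range under all 11 alternatives that give crossed pairs.

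The wider ETS pattern (AGGAAGT or CGGAAGT), which includes that word, was in 200 members (21.2%) and in 5.09 to 16.7% of crossed pairs. Without G1E list 2 it was in 11.3%. Without the PU.1 type it was in 88 members (9.31%), inside the crossed range of 3.94 to 9.74%. Regions of all 4 lists, mostly promoters, had 14.5% of these other ETS matches. Without the PU.1 type the members thus did not stand above all crossed pairs. Only the pair of G1E list 2 with G1E-ER4 list 2 was higher, at 9.74%. The other crossed pairs had 3.94, 7.56 and 5.73%, and G1E-ER4-only regions had 6.23%.

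The lists contributed unequally to the PU.1 type share. Regions held by G1E list 2 alone had it in 11.8% and regions held by G1E list 1 alone in 1.94%. Regions of G1E-ER4 list 1 alone and list 2 alone had 1.49% and 1.83%. The highest crossed value, 6.96%, was for G1E list 2 with G1E-ER4 list 2. When G1E list 2 was left out the share was 5.55%, when G1E list 1 was left out it was 11.9%, and without G1E-ER4 list 1 or list 2 it was 8.01% or 6.89%. List 2 of G1E thus carried the word in its own regions as well as in those shared with list 1, and whether this reflects the cells or the list was not tested.

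RUNX words (TGTGGTT or TGCGGTT) were in 125 members (13.2%, 11.2 to 15.5), against 7.25% of G1E-ER4-only regions, 5.73 to 9.03% of crossed pairs and 6.56% of all merged regions. G1E list 2 alone had 11.9% and G1E list 1 alone 6.0%, and without G1E list 2 the share was 8.91%. Among the top 10000 peaks the RUNX share was 9.4% and the ETS share 19.7%, both inside the crossed ranges (3.48 to 11.6% and 5.29 to 20.1%). In the 79 members with no G1E-ER4 peak, 17 had a RUNX word (21.5%, 13.9 to 31.8) and 12 the PU.1 type word (15.2%, 8.91 to 24.7).

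**Figure D4:**
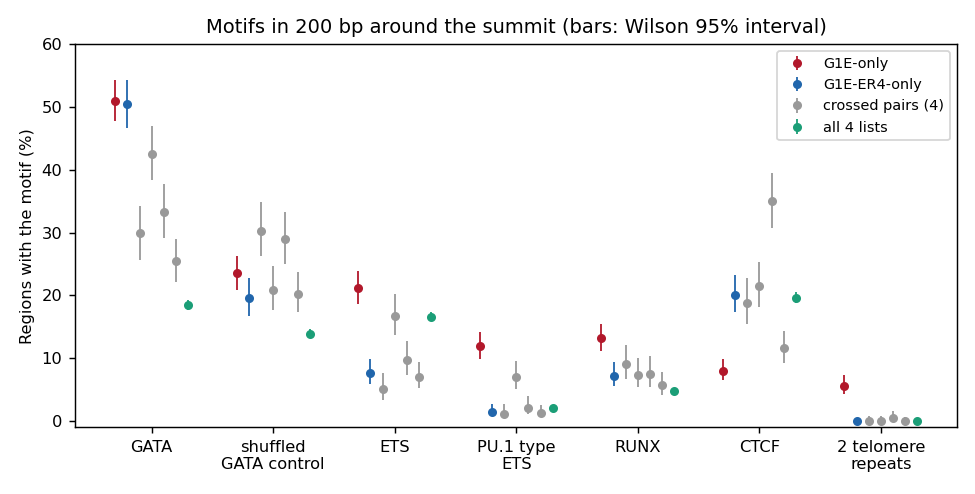
Points give the share of regions (y axis, percent) with each motif (x axis) in 200 bp around the summit, with Wilson 95% intervals, for the G1E pair, the G1E-ER4 pair, the 4 crossed pairs and regions of all 4 lists. The G1E pair stands above the crossed pairs for GATA (51.0%), ETS (21.2%), the PU.1 type (11.9%), RUNX (13.2%) and telomere repeats (5.61%) and below them for CTCF (8.04%).

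The share of members with a GATA word was lower where the PU.1 type word was present and nearly the same with and without a RUNX word. Of the 112 members with the PU.1 type word, 50 also held a GATA word (44.6%), against 51.9% of the 833 members without it. Those 833 include all 53 members with telomere repeats, described below, of which only 5 held a GATA word. Of the 125 with a RUNX word, 65 held a GATA word (52.0%), against 50.9% of the 820 without one. RUNX and PU.1 type words were together in 14 members, so the PU.1 type was in 11.2% of members with a RUNX word and in 12% of those without. In all, 636 members (67.3%) held a GATA, ETS or RUNX word, against 33.9 to 53.7% in crossed pairs and 57.2% in G1E-ER4-only regions.

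CTCF matches were fewer. They were in 76 members (8.04%, 6.47 to 9.95), in 11.6 to 35.0% of crossed pairs, in 20.1% of G1E-ER4-only regions and in 19.6% of regions of all 4 lists. G1E list 1 alone had 7.68% and list 2 alone 10.3%. Without G1E-ER4 list 1 the share was 14.4% and without G1E-ER4 list 2 it was 14.8%. Among the top 10000 peaks it was 13.2%, inside the crossed range of 11.5 to 31.2%. The difference between the states, 12.1 points, was smaller than the 23.4 points between a pair of crossed classes (exact permutation, p = 0.667). MYB words (TAACGG or CAACGG or TAACTG or CAACTG) were in 27.4% of members and 17.8 to 22.5% of crossed pairs. The AP-1 word TGAGTCA was in 8.04% and 3.11 to 7.34%. The estrogen response element was in no member, no G1E-ER4-only region and no region of a crossed pair, and in 0.00849% of all merged regions.

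Regions of lower rank, which played no part in the choice, also had the G1E pair highest for the PU.1 type and RUNX words. These 5063 regions had peaks from the G1E pair of lists, none from the G1E-ER4 pair, and no top-ranked peak in any list. The PU.1 type word was in 7.07% of them (6.4 to 7.81), in 1.85% of the 2758 such G1E-ER4-only regions and in 1.09 to 3.93% of crossed regions. RUNX words were in 8.12%, against 4.71% and 4.58 to 6.61%. GATA words were in 34.8%, above the crossed 20.8 to 32.2% and below the 37.3% of G1E-ER4-only regions. CTCF matches, at 9.16%, were inside the crossed range of 5.31 to 11.9%. These regions come from the same 4 lists as the members, so they are not separate samples. The G1E lists differed here too. Crossed regions with G1E list 2 had the PU.1 type word in 3.93 and 2.85%, and those with G1E list 1 in 1.09 and 1.63%. For RUNX words the values were 5.95 and 6.61% with G1E list 2 and 4.58 and 4.62% with G1E list 1.

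**Figure D5:**
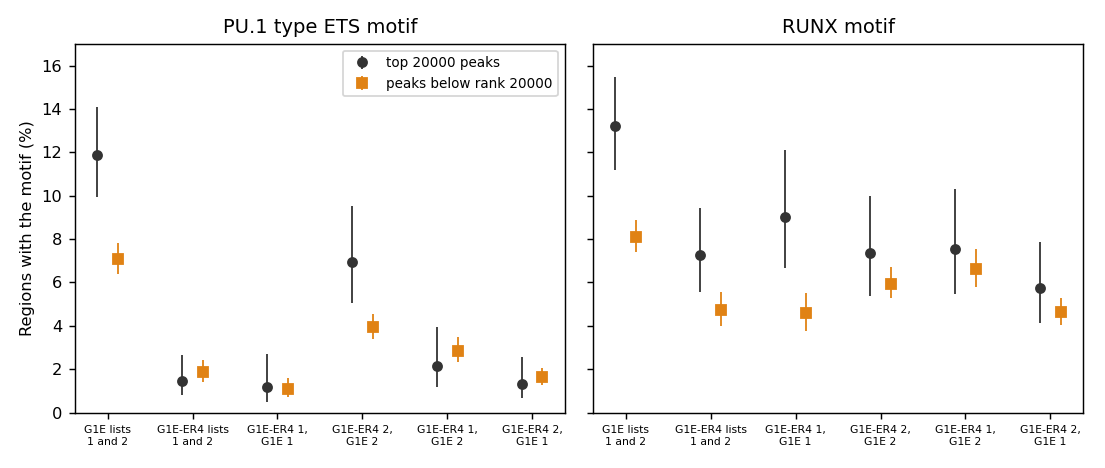
Points give the share of regions (y axis, percent) with the PU.1 type word and the RUNX word for the 6 pairs of lists (x axis), from the top 20000 peaks (circles) and from lower ranks (squares), with Wilson 95% intervals. The G1E pair is highest in both rank classes, at 11.9% and 7.07% for the PU.1 type and 13.2% and 8.12% for RUNX.

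A count of all words of 8 letters gave the same leaders with no motif chosen beforehand. Among 28325 words, the largest excess of members over the highest crossed pair was for AAGAGGAA, in 11.1% of members, 0.87% of G1E-ER4-only regions and at most 4.77% of crossed regions. Of the first 20 words, 3 held GAGGAA, 8 held GATAA, 2 held TGTGGTT and 6 were parts of the telomere repeat.

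Telomere repeats marked a separate group of members. At least 2 copies in a row of TTAGGG were in 53 members (5.61%), in no G1E-ER4-only region, in at most 0.432% of crossed regions and in 0.0227% of regions of all 4 lists. Regions of G1E list 2 alone held them in 4.68%, and regions of G1E list 1 alone in 0.0%. Of the 53, 41 had a lower-ranked peak in G1E-ER4 list 1, 1 had one in list 2 and 12 had none. They were between genes in 33 cases and held a GATA word in 5. One lay 25720 bp from Gm9631 near the end of chromosome 11, at percentiles 90.2 and 98.8 in G1E and 73.3 in G1E-ER4 list 1. Such repeats occur at many places in the genome, and the submitters' design text says that reads mapping to many places were retained, each at its best match, so the place of these sites is uncertain. Without them 892 members remained, with GATA words in 53.5%, the PU.1 type in 12.6% and RUNX words in 13.8%.

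The strongest members were spread over genes of diverse function, given here as the nearest with no limit on distance. A region 38725 bp from Slc38a10, an amino acid transporter gene, had 98.2 and 98.1 in G1E and 53.6 and 74.2 in G1E-ER4. In an intron of Nrp2, the neuropilin 2 receptor, a region with a GATA word had 94.1 and 97.7 in G1E and 73.4 and 66.9 in G1E-ER4. Both had a peak in each G1E-ER4 list, of lower rank. Others of the first 10 were nearest Zswim4, Aacs (acetoacetyl-CoA synthetase), BC057022, Ahnak (a giant scaffold protein), Gm9631, Nr4a1 (an orphan nuclear receptor) and Ldlrad3. Their G1E percentiles ran from 90.2 to 98.8, and the regions at Zswim4 and Ldlrad3 held the PU.1 type word.

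The ranks of a member could differ widely between the G1E lists. In an intron of Hsd11b1, a steroid dehydrogenase gene, a region had rank 45 in G1E list 1 and rank 16855 in list 2, the widest gap among the 945 members. It was singled out after its values were seen.

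Among members with no G1E-ER4 peak, Arhgef10l led. This gene encodes a guanine nucleotide exchange factor, and it had 4 members, 3 of them with no G1E-ER4 peak. An intron region (chr4:140142231-140143567, 93.1 and 94.6) holds the PU.1 type word printed above, and a promoter region (chr4:140136990-140142204, 90.7 and 96.1) lies 86 bp from a start and holds a GATA word. These regions nearly touch, and they join into 1 where peaks within 150 bp are merged. A further intron region (chr4:140110437-140112611) had 90.8 and 90.1. The fourth (chr4:140101897-140104070) had 83.8 and 87.1 and a peak at 73.7 in G1E-ER4 list 2. Next came Cacng1, a subunit of the muscle calcium channel (chr11:107581338-107582580, 88.4 and 96.3), and Mccc2, an enzyme of leucine breakdown, at whose promoter a region had 89.9 and 93.4. Kif20b, a kinesin of cell division, had 88.7 and 93.1, Rab8a, a GTPase of membrane traffic, 87.6 and 93.3, and Nmnat2, an enzyme of NAD synthesis, 88.2 and 92.6. A region given to Supt7l, in an untranslated exon of its neighbour Gpn1, had 86.5 and 94.2 and a PU.1 type word. An intron region of Tbx21, the lymphoid factor T-bet, had 88.9 and 90.8.

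Within 50 kb of a start, 741 members fell to 665 genes as the nearest. That is 3.88% of the 17161 protein-coding genes on these chromosomes and 6.47% of the 10286 genes with any top-ranked region. G1E-ER4-only regions reached 567 genes, 3.3% of the 17161, and crossed pairs 331 to 452 genes. Classes that reach more genes hit more genes of any list by number alone. The part of number in the counts of gene lists and families below was not tested. Most genes had 1 member (602), 53 had 2, 7 had 3 and 3 had 4. The promoter of 496 of the 665 (74.6%, 71.1 to 77.7) had a peak in all 4 lists, against 77.3% of genes with any top-ranked region. In 14 (2.11%) the promoter had peaks in the 2 lists of G1E alone. That count partly follows from the rule, since 68 members lay at promoters. The same share is not given for all genes or for the other classes, so nothing is read from it. The nearest start need not be the gene that a site acts on.

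Besides Arhgef10l, Ahnak and Coro2a had 4 members. Coro2a encodes a coronin, a protein of the actin skeleton. Its 4 members were all in introns, and 3 of them held the PU.1 type word. The strongest (chr4:46594317-46599832) had 86.5 and 92.0 in G1E and no G1E-ER4 peak. The others had 84.1 and 91.1, 83.6 and 87.2, and 82.7 and 84.5, each with no peak in G1E-ER4 list 1 and a peak at 72.7, 77.5 and 64.6 in list 2. At Ahnak all 4 members had a peak in at least 1 G1E-ER4 list, and the strongest stood at 94 and 95 in G1E and at 70.0 and 64.6 in G1E-ER4. The genes with 3 members were Tbc1d8 (a Rab GTPase activator), 5730469M10Rik, Map3k14 (the NF-kappaB inducing kinase), Avpr1b (a vasopressin receptor), Erg, Tnrc18 and Slc44a1 (a choline transporter). All 3 members at Erg and all 3 at Map3k14 held a GATA word.

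Of 32 progenitor and stem cell genes measured, 5 (15.6%) had a member: Erg, Ikzf1, Cd44, Myb and Runx1. The share of all genes was 3.88%, but among listed genes with any top-ranked region the share was 19.2%, and for all such genes it was 6.47%. G1E-ER4-only regions reached 2 of the 32 and crossed pairs 0 to 2. Erg, an ETS factor of stem cells and megakaryocytes, had 3 intron members. The first (chr16:95659690-95662221) had 88.5 and 91.8 in G1E and 56.6 and 64.1 in G1E-ER4. Ikzf1, the lymphoid and stem cell factor Ikaros, had an intron region at 87.9 and 87.5, with 63.4 and 58.2 in G1E-ER4. A region 12722 bp upstream of Cd44, a receptor for hyaluronan, had 86.5 and 88.4 in G1E and 13.4 and 44.2 in G1E-ER4. Runx1, a RUNX factor of blood stem cells, had an intron region at 80 and 87.5, with no peak in G1E-ER4 list 1 and 68.5 in list 2.

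Of 8 genes known to fall as G1E-ER4 cells mature, 1 (12.5%) had a member within 50 kb, against 3.88% of all genes. G1E-ER4-only regions reached 1 and crossed pairs 0 to 1, so the count lay inside the noise level. The gene was Myb, a factor that sustains progenitor growth. Its intron region (chr10:20870585-20871607) lies 9444 bp downstream of a start, stood at 84.8 and 85.5 in G1E and had no peak in either G1E-ER4 list. It holds the PU.1 type word printed above. The promoters of all 8 genes, Kit, Gata2, Myc, Myb, Cdk6, Ccnd2, Spi1 (named Sfpi1 in the annotation) and Lyl1, had a peak in all 4 lists. So did the promoters of 77.3% of genes with any top-ranked region. Farther than 50 kb from a start, 4 members had Kit, Cdk6 or Myc as the nearest gene, and they were looked up after the other values were seen. They are among the 204 members that far from any start, and no such count is given for the other classes. Kit, the stem cell factor receptor, had one 114271 bp upstream (chr5:75854118-75857814), at 92.4 and 93.6 in G1E and 74.1 and 71.0 in G1E-ER4, with GATA and RUNX words. Its other member, 169938 bp downstream, stood at 82.4 and 80.9 in G1E and at 70.2 in G1E-ER4 list 2 alone. A region 145275 bp upstream of Cdk6, a kinase of the G1 phase, stood at 82.8 and 90.7 in G1E, had no G1E-ER4 peak and held a GATA word. A region 118227 bp downstream of Myc, a transcription factor that drives proliferation, stood at 83.9 and 85.6 in G1E and at 70.8 and 78.2 in G1E-ER4, with GATA and RUNX words. Within 50 kb, Kit also had 1 G1E-ER4-only region.

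Signalling genes with members included adaptors, kinases and receptors. Of 49 cytokine and growth factor receptor and signal genes, 9 had a member (18.4%), G1E-ER4-only regions reached 6 and crossed pairs 2 to 8. The share of all genes was 3.88%. Among listed genes with any top-ranked region it was 20.5%, against 6.47% of all such genes. Stat5a, the transcription factor downstream of the erythropoietin receptor, had 2 members, 1 of them in an intron of its neighbour Stat3, and the adaptors Grb2 and Irs2 had 2 each. The others were Pik3cd, Pik3r1, Ifngr2, Il17ra, Vav1 and Fyn. An intron region of Pik3cd, the delta catalytic subunit of phosphoinositide 3-kinase, had 90.6 and 89.1, no peak in G1E-ER4 list 1 and 55.4 in list 2.

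Of 42 adhesion and migration genes, 6 had a member (14.3%): Tns4, Itgb2, Vcl, Cd44, Ptk2b and Tns1. This list, like the others, was chosen with earlier results of these data known, so its count is a description. G1E-ER4-only regions reached 1 and crossed pairs 1 to 4, and the share of all genes was 3.88%. Among listed genes with any top-ranked region the share was 17.6%, against 6.47% of all such genes. Itgb2, the beta chain of leukocyte integrins, had an intron region at 87.5 and 92.3 in G1E and at 21.6 in G1E-ER4 list 2 alone. A region 15925 bp upstream of Tns4, a tensin of focal adhesions, had 89.2 and 94.8 in G1E and 30.4 in G1E-ER4 list 2 alone. Of 17 ETS family genes, 3 (17.6%) had a member (Erg, Ehf and Elf1), G1E-ER4-only regions reached 2 and crossed pairs 0 to 2. The Elf1 region lay at a promoter, 66 bp from a start, at 84.1 and 84.2.

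Genes of red cell maturation had members too. All genes had a share of 3.88%. Of 44 erythroid maturation genes, 4 had a member (9.09%), the same number as for G1E-ER4-only regions and inside the crossed range of 1 to 4. They were the adducin gene Add2, the band 4.1 gene Epb4.1, the ferritin gene Fth1 and the mitochondrial iron importer Slc25a37. A second Add2 region had 83.4 and 91.1 in G1E, held GATA, PU.1 type and RUNX words and had 49.4 in G1E-ER4 list 2 alone. Of 23 megakaryocyte genes, 2 had a member (Pf4 and Gp1ba), against 3 for G1E-ER4-only regions and 0 to 1 for crossed pairs. One of 24 mast cell, granulocyte and monocyte genes (Cma1) and one of 20 lymphoid genes (Tbx21) had a member, both inside the crossed range of 0 to 1. Of 18 pluripotency, liver and neural genes, which these cells are not known for, 2 had a member (Mbp and Hnf4a, 11.1%), against 3 for G1E-ER4-only regions and 0 to 1 for crossed pairs. Among the genes of that list with any top-ranked region the share was 22.2%, higher than the 19.2% of the progenitor list.

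For gene families named by symbol, the share of all genes to compare with was again 3.88%. Among these families, 6 of 68 interleukins and their receptors had a member (8.82%), against 2 for G1E-ER4-only regions and 1 to 2 for crossed pairs. They were Il1rl1, Il1r2, Il17ra, Il1rl2, Il31 and Il13, and Il1rl1, the receptor of interleukin 33, had one at its promoter. Of 30 kinesins, 4 had a member (Kif3b, Kif20b, Kif1b and Kif2a), against 2 and 0 to 2. Ubiquitin ligase genes of the Trim, Rnf and Fbx types had 10 of 157 (6.37%), among them Rnf130, Rnf157 and Rnf186, against 8 and 1 to 5. Solute carriers had 17 of 291 (5.84%), among them Slc44a1 and Slc38a9, against 11 and 6 to 13. Zinc finger Zfp genes had 9 of 249 (3.61%), among them Zfp703, Zfp385a and Zfp362, and Tmem genes 7 of 167 (4.19%), among them Tmem9, Tmem20 and Tmem64. None of 39 Hox genes had a member, inside the crossed range of 0 to 1, while 5 had a G1E-ER4-only region.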

How the data were processed

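DNase-seq of 2 mouse samples was used, with 2 deposited peak lists each. Per the labels' series design text, 20-base reads were mapped to mm9 with Bowtie, keeping the best place of reads with several matches, lanes were pooled per replicate, F-seq made a density and peaks were called by a gamma fit. The deposited signal of each peak is the authors' F-seq value, and no p-value or read depth was used, so depth is unknown. Each list holds 100000 peaks, so ranks were compared within a list only. The lists differed in median peak width (520 to 836 bp) and in the promoter share of top-ranked peaks (40.2% in G1E-ER4 list 1, 43.6 to 47.9% in the others).

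The members, gene lists and motifs were chosen with earlier results of these data known. Top-ranked peaks overlapping by 1 bp were merged, summits were placed with GENCODE vM1, and motifs were searched in NCBIM37 with Python 3.11.15, pandas 2.3.3, scipy 1.17.1 and pysam 0.24.0. Each state is 1 sample, so classes were compared with the 4 crossed pairs, with Wilson 95% intervals over regions and an exact permutation over 3 divisions of the lists. Named genes were those nearest the 10 strongest members, the 10 strongest without a G1E-ER4 peak, the 10 with most members, up to 4 in each gene list and up to 3 in each family with 5 or more genes hit. Some genes that this rule names, and 1 gene list, are not reported here. The PU.1 type and CTCF motifs were singled out after their shares were seen. The merging and motif searches were tested on simulated data.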

Additional observations from a re-analysis of the deposited data

How the results depend on the processing

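No paired analysis was possible because each state is 1 sample. Both states have a list 1 and a list 2, but lists of the same number were not taken as pairs across the states. Of 120 values under alternatives, 61 stayed within the interval of the share, or within 1.5 times the count, and 59 did not. The cause of these shifts was not tested, apart from alternatives that by construction require fewer lists or use other windows. The alternatives on telomere repeats, GC content and whole-region promoters, and those for the PU.1 type, CTCF and nearest genes, were chosen after seeing the data.

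With the top 10000 peaks of each list, there were 234 G1E-only regions near 191 genes, of which 98.7% had a lower-ranked G1E-ER4 peak, 21.8% were promoters, 41.9% held GATA, 9.4% RUNX, 8.55% PU.1 type and 13.2% CTCF matches. With the top 30000, 1809 regions near 1184 genes gave 76.3% with a lower-ranked peak, 4.59% promoters and 18.6% ETS. Merging summit windows gave 15.6% promoters, below the crossed range of 16.8 to 36.0%, 44.6% GATA and 10.2% CTCF. The promoter share was 9.95% within 2000 bp and 9.21% where any base of the region counted. The 79 regions with no G1E-ER4 peak, near 46 genes, had 21.5% RUNX, 15.2% PU.1 type and 1.27% CTCF. In 100 bp windows GATA was in 34.8%, ETS in 14.4%, RUNX in 7.83%, PU.1 type in 8.15% and CTCF in 5.29%. In 400 bp windows GATA was in 64.9%, ETS in 27.0%, RUNX in 20.1% and CTCF in 10.8%. GATA was in 58.0% of windows with 45 to 55% GC.

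Leaving out 1 list at a time gave 1610 to 2895 regions near 1129 to 1889 genes, 73.9 to 82.4% with a lower-ranked peak and 5.28 to 33.4% promoters, the highest without G1E-ER4 list 2. The ranges were 34.7 to 50.1% for GATA, 11.3 to 22.1% for ETS, 8.9 to 12.3% for RUNX, 5.55 to 11.9% for PU.1 type and 7.78 to 14.8% for CTCF. Against crossed pairs, the PU.1 type share stayed above in 11 of 11 alternatives, GATA and RUNX in 10, ETS in 9, and CTCF stayed below in 9. The number of regions was above in 5 of 7.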
